A study of Saccharomyces cerevisiae and Saccharomyces paradoxus and Saccharomyces cerevisiae x Saccharomyces paradoxus with 12 samples.

Results

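The assembly factors of the 60S ribosomal subunit, the large subunit of the ribosome, were followed in 2 budding yeasts and their hybrid. The members were a list of 57 open reading frames known from budding yeast to act in building the 60S subunit. The rule that picks them uses no measured value, but they were chosen with earlier results of these data known. Of the 57, 55 were among the 5226 genes counted, while NOP7 and MDN1 were not analysed here. Large subunit assembly starts in the nucleolus on the ribosomal RNA precursor, where assembly factors fold, cut and modify the RNA while ribosomal proteins join. The particle then passes through the nucleoplasm, is exported through the nuclear pore, and sheds its last factors in the cytoplasm. In budding yeast the genes for these factors form part of the ribosome biogenesis regulon, a large gene set that is transcribed in step with growth and nutrients under the TOR pathway.

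RNA-seq, which counts mRNA fragments, and Ribo-seq, which counts the mRNA fragments covered by ribosomes (ribosome occupancy), were made from 3 strains. These were a hybrid of both species (GSY88, diploid), S. cerevisiae (GSY83, diploid) and S. paradoxus (GSY82, diploid). All were grown in rich glucose medium at 30 °C and received cycloheximide, which halts ribosomes on mRNA, before extraction. Each strain stands for its species by 1 genotype, with 2 libraries per assay (12 libraries in 6 groups), and each hybrid library was counted separately for its S. cerevisiae and its S. paradoxus allele, giving 16 columns of counts. Nothing in the labels tells whether replicate libraries were grown as separate cultures. The p-values therefore measure the spread between these samples, which may be technical. Levels are given as CPM, the count of a gene relative to the scaled size of its library, so a lower level can mean less mRNA of the gene or more of other mRNAs, and the 2 cannot be told apart. Ratios are log2 of S. cerevisiae over S. paradoxus, and a gene was called changed where edgeR's quasi-likelihood p, adjusted over all genes tested (Benjamini-Hochberg), was under 0.05.

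Depth was 6116133 to 8910405 counts per column, and matching S. cerevisiae and S. paradoxus columns differed in total by at most 0.18%. The sources used here give no reason for that. The members had between 80 and 7862 counts in any column, and all 55 passed the filter on low counts. They lie on 14 chromosomes and have coding lengths of 363 to 5295 bases in S. cerevisiae (median 1461, against 1236 over all genes). Between the species the length was the same for 34 and differed by more than 10% for none. DBP2 (YNL112W, chrXIV:413639-416281, forward strand) and NOG2 (YNR053C, chrXIV:721120-723112, reverse strand) are the only members with an intron in the coding table. NOG2 overlaps the small nucleolar RNA gene SNR191 by 274 bases, and SSF1 has a near-identical copy, SSF2, so the counts of both are uncertain.

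The 2 hybrid RNA-seq libraries stood apart for these genes. The second minus the first had a median of -0.88 (log2) for the S. cerevisiae allele and -0.84 for the S. paradoxus allele, with 53 of 55 members lower for either allele, while the median over all genes was -0.02 and 0.02. A log2 value below -1 was seen for 19 members (34.5%) from the S. cerevisiae allele and 16 (29.1%) from the S. paradoxus allele, against 3.61% and 3.47% of all genes. The gap was widest for EBP2, RRP15 and CIC1 from the S. cerevisiae allele (-1.85, -1.82 and -1.80), and NOG1 was higher in the second library for both alleles (0.55 and 0.35). In the other groups the second library was also the lower one, by -0.12 to -0.30, in 35 to 54 of 55 members. Over all genes the medians in those groups were -0.02 to 0.03, with 2412 to 2810 of 5158 genes lower. The part of the gap between the hybrid RNA-seq libraries in the results was not tested. Most counts of calls from the fit of all columns and from the summed alleles are also given without these libraries. For parental mRNA and occupancy these omissions enter only the range over all single libraries. Counts from the fit of the hybrid columns alone are not given without them.

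**Figure D1:**
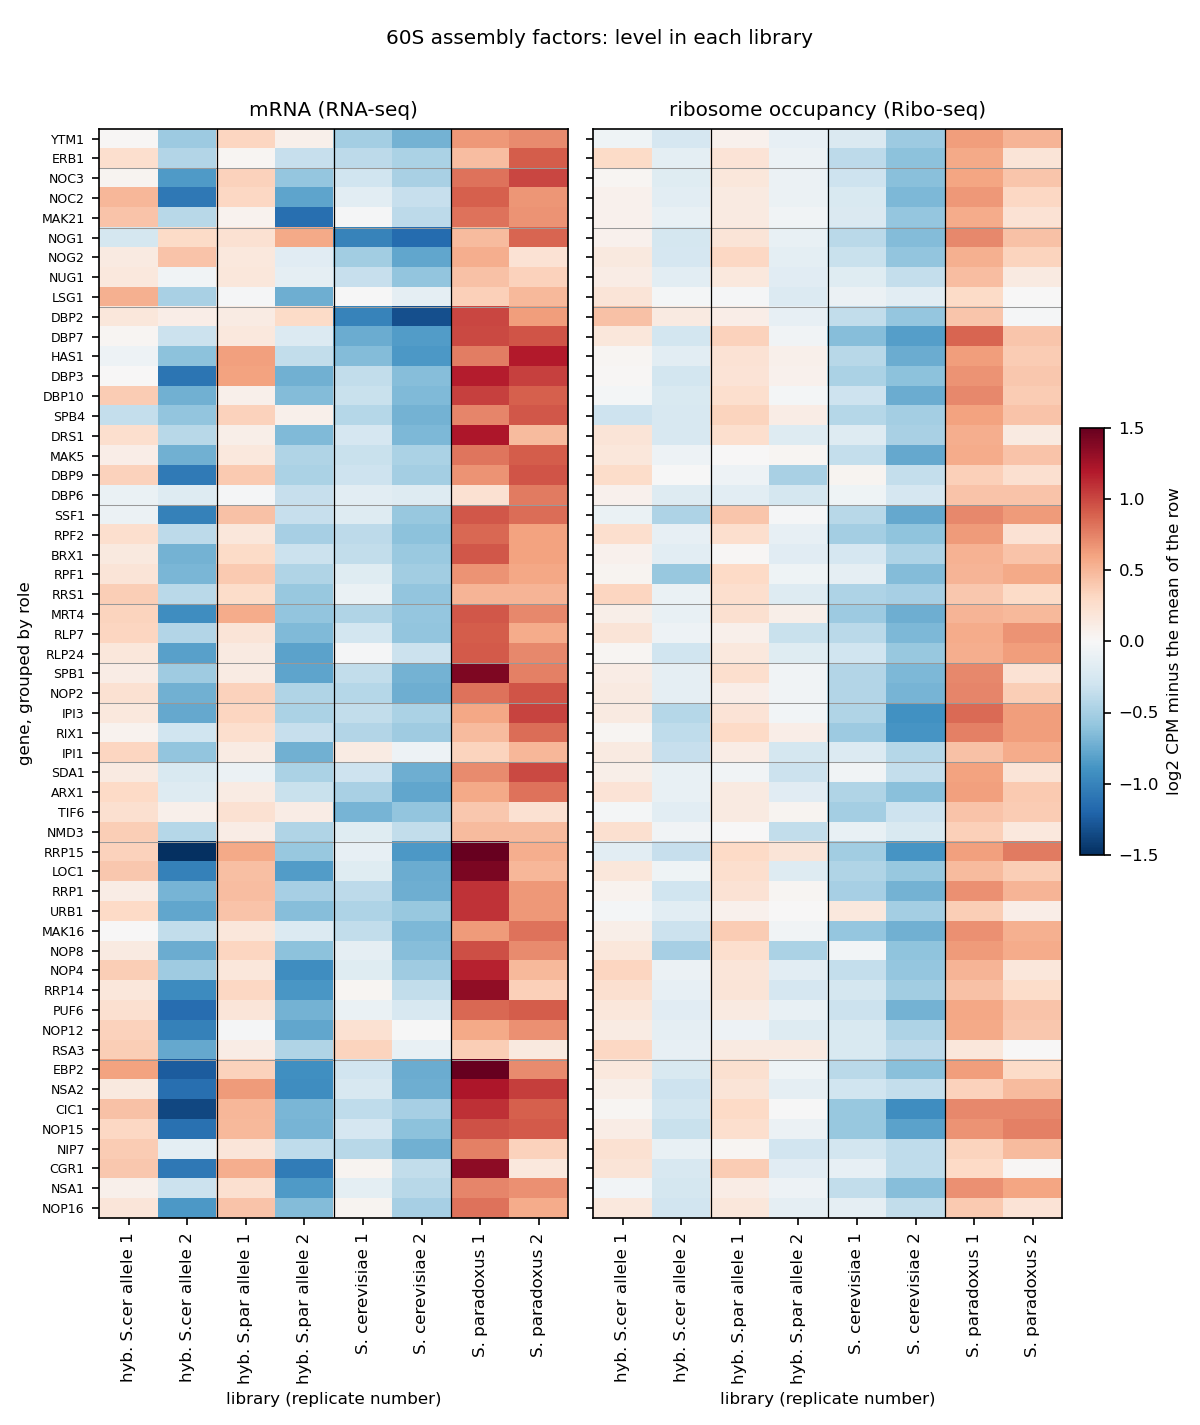
Level of each of the 55 members in every library, by role group (rows), as log2 CPM minus the mean of the row over 8 columns of the same assay. Red is above and blue below that mean, and values past the ends of the scale take the end colours. The S. paradoxus columns are red and the S. cerevisiae columns blue for nearly every gene in both assays, and the second hybrid RNA-seq library is bluer than the first for both alleles.

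The mRNAs of the 60S assembly factors were less abundant in S. cerevisiae than in S. paradoxus almost throughout. Of the 55 members, 48 were lower and 0 higher in S. cerevisiae, where 21.6% of all 5158 genes tested were lower, 21.9% higher and 43.5% changed in either direction. The median log2 ratio of the members was -1.24, against 0.00 over all genes, and every member's estimate was below 0. In 54 of 55 members both S. cerevisiae libraries lay below both S. paradoxus libraries, which held for 38.7% of all genes, and RSA3 was the exception. None had the reverse order, found for 39.8% of all genes. Together the members took 1.01% and 0.841% of all counts in S. cerevisiae RNA-seq, against 1.82% and 1.83% in S. paradoxus RNA-seq. The count of lower members dropped to 24 without S. cerevisiae RNA-seq replicate 2 and to 29 without S. paradoxus RNA-seq replicate 1, with medians of -1.10 and -1.11. With scaling to total counts the median over all genes itself shifted to 0.27, and the members' median was -0.96, or -1.23 relative to all genes, with 38 lower.

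Early nucleolar factors bind the first precursor of the large subunit RNA, and 9 of the 11 were lower in S. cerevisiae (median log2 -1.21). The lowest was RRP15 (-1.60), needed for processing of the 27S precursor RNA, and URB1, RRP1, LOC1, MAK16, NOP8, NOP4, RRP14 and PUF6 were also lower (-1.46 to -1.05). URB1, NOP8 and RSA3 belong to 1 early complex with the helicase DBP6, and PUF6 and LOC1 are RNA-binding proteins that also act in the localization of ASH1 mRNA. RSA3 had 86.1 and 63.6 CPM in S. cerevisiae, against 88.5 and 75.95 CPM in S. paradoxus, and its libraries overlapped between the species. Its ratio did not pass the test (95% interval -0.78 to 0.51), nor did that of the RNA-binding protein NOP12 (-0.51, 95% interval -1.23 to 0.21).

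All 10 RNA helicases, DEAD-box enzymes that unwind and remodel the precursor RNA and its bound factors, were lower in S. cerevisiae (median -1.42). DBP2, a helicase that also acts in mRNA metabolism, had 250.2 and 201 CPM in S. cerevisiae, against 998 and 774 CPM in S. paradoxus. It was 3.93-fold lower in S. cerevisiae (log2 -1.97, SE 0.20, edgeR adjusted p = 1.5e-05), the lowest ratio of any member. DBP7 (YKR024C, chrXI:485144-487372, reverse strand), which acts on the earliest particles, had 42.8 and 39.96 CPM in S. cerevisiae, against 142 and 138 CPM in S. paradoxus, a 3.38-fold lower level (log2 -1.76, SE 0.23, edgeR adjusted p = 7.5e-05). HAS1, which acts in the assembly of both subunits, had 152 and 132 CPM in S. cerevisiae, against 408 and 544 CPM in S. paradoxus (log2 -1.75, SE 0.29, edgeR adjusted p = 0.000443). SPB4 (YFL002C, chrVI:145114-146934, reverse strand), a helicase of the nucleolar stage, had 80.3 and 66.2 CPM in S. cerevisiae, against 178 and 205 CPM in S. paradoxus (log2 -1.39, SE 0.17, edgeR adjusted p = 4.75e-05). None of these 4 genes overlapped between the species. DBP3, DBP10, DRS1, MAK5 and DBP9 were lower too, at -1.61 to -1.22, and DBP6 had the smallest helicase ratio, -0.71 (SE 0.19).

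The methyltransferases SPB1 and NOP2, which modify the RNA of the large subunit, were both lower (-1.65 and -1.45). The PeBoW complex, where ERB1 and YTM1 work with NOP7 on the 27S precursor RNA, was lower for both measured members. ERB1 had 145 and 137 CPM in S. cerevisiae, against 264 and 359 CPM in S. paradoxus (log2 -1.14, SE 0.26, edgeR adjusted p = 0.00329). YTM1 had 149.6 and 129.8 CPM in S. cerevisiae, against 333 and 349 CPM in S. paradoxus (log2 -1.29, SE 0.20, edgeR adjusted p = 0.000283), and neither gene overlapped between the species. The NOC proteins act in pairs on particles of the nucleolus and the nucleoplasm. NOC3 (-1.30) and MAK21, also called NOC1 (-0.94), were lower, while NOC2 stood at -1.03 with an edgeR adjusted p of 0.0578.

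All 5 members of the group of Brix proteins and their partner RRS1 were lower (median -1.23). RPF2 and RRS1 bring the 5S RNA particle into the growing subunit. RPF2 had 83.2 and 70.8 CPM in S. cerevisiae, against 198 and 166 CPM in S. paradoxus (log2 -1.24, SE 0.27, edgeR adjusted p = 0.00246). RRS1 had 75.5 and 53.95 CPM in S. cerevisiae, against 116 and 116 CPM in S. paradoxus (log2 -0.84, SE 0.30, edgeR adjusted p = 0.0351). Neither overlapped between the species, and RRS1 had the smallest difference of the 5, with BRX1, SSF1 and RPF1 between -1.26 and -0.97. Among the proteins that resemble ribosomal proteins, MRT4 holds the place of the stalk protein P0, RLP24 that of Rpl24, and RLP7 is related to Rpl7. All 3 were lower (-1.34, -0.98 and -1.17).

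Of the 8 factors of the mid nucleolar stage, 6 were lower (median -1.25): EBP2 (-1.70), NSA2 (-1.59), CIC1 (-1.44), NOP15 (-1.36), NIP7 (-1.13) and NSA1 (-0.99). EBP2 and NSA2 act on the 27S precursor RNA, and CIC1 and NOP15 sit on the internal transcribed spacer that separates the large subunit RNAs. CGR1 (95% interval -2.12 to 0.09) and NOP16 (-1.66 to -0.13) did not pass the test. Of the 4 GTPases, switch proteins that gate steps of maturation, 3 were lower. NOG1 (YPL093W, chrXVI:370978-372921, forward strand), which joins in the nucleolus and leaves in the cytoplasm, had 246 and 220.4 CPM in S. cerevisiae, against 686 and 899.6 CPM in S. paradoxus, 3.4-fold lower in S. cerevisiae and with no overlap (log2 -1.76, SE 0.23, edgeR adjusted p = 8.78e-05). NOG2, which gates nuclear export, and NUG1 were lower by smaller amounts (-1.04 and -0.86). LSG1, the cytoplasmic GTPase that helps release NMD3, had 129.5 and 119 CPM in S. cerevisiae, against 167 and 183 CPM in S. paradoxus, which did not overlap, but its ratio did not pass the test (log2 -0.49, SE 0.28, edgeR adjusted p = 0.174, 95% interval -1.10 to 0.12).

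The Rix1 complex acts at the nucleoplasmic stage together with the large ATPase MDN1. RIX1 and IPI3 were lower (-1.15 and -1.24). IPI1 had 85.1 and 73.7 CPM in S. cerevisiae, against 97.8 and 109.5 CPM in S. paradoxus, with no overlap but a ratio that did not pass the test (log2 -0.39, SE 0.30, edgeR adjusted p = 0.318, 95% interval -1.03 to 0.26). All 4 export and cytoplasmic factors were lower. TIF6 (YPR016C, chrXVI:592332-593069, reverse strand), which keeps the immature large subunit from pairing with the small one, had 226 and 243 CPM in S. cerevisiae, against 483 and 429 CPM in S. paradoxus (log2 -0.96, SE 0.15, edgeR adjusted p = 0.000256). NMD3 (YHR170W, chrVIII:443828-445384, forward strand), the export adaptor, had 184 and 162 CPM in S. cerevisiae, against 291 and 289 CPM in S. paradoxus (log2 -0.74, SE 0.25, edgeR adjusted p = 0.0294). SDA1 and ARX1, which are needed for the passage to the cytoplasm, were lower too (log2 -1.36 and -1.32). The libraries of TIF6 and NMD3 did not overlap between the species.

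**Figure D2:**
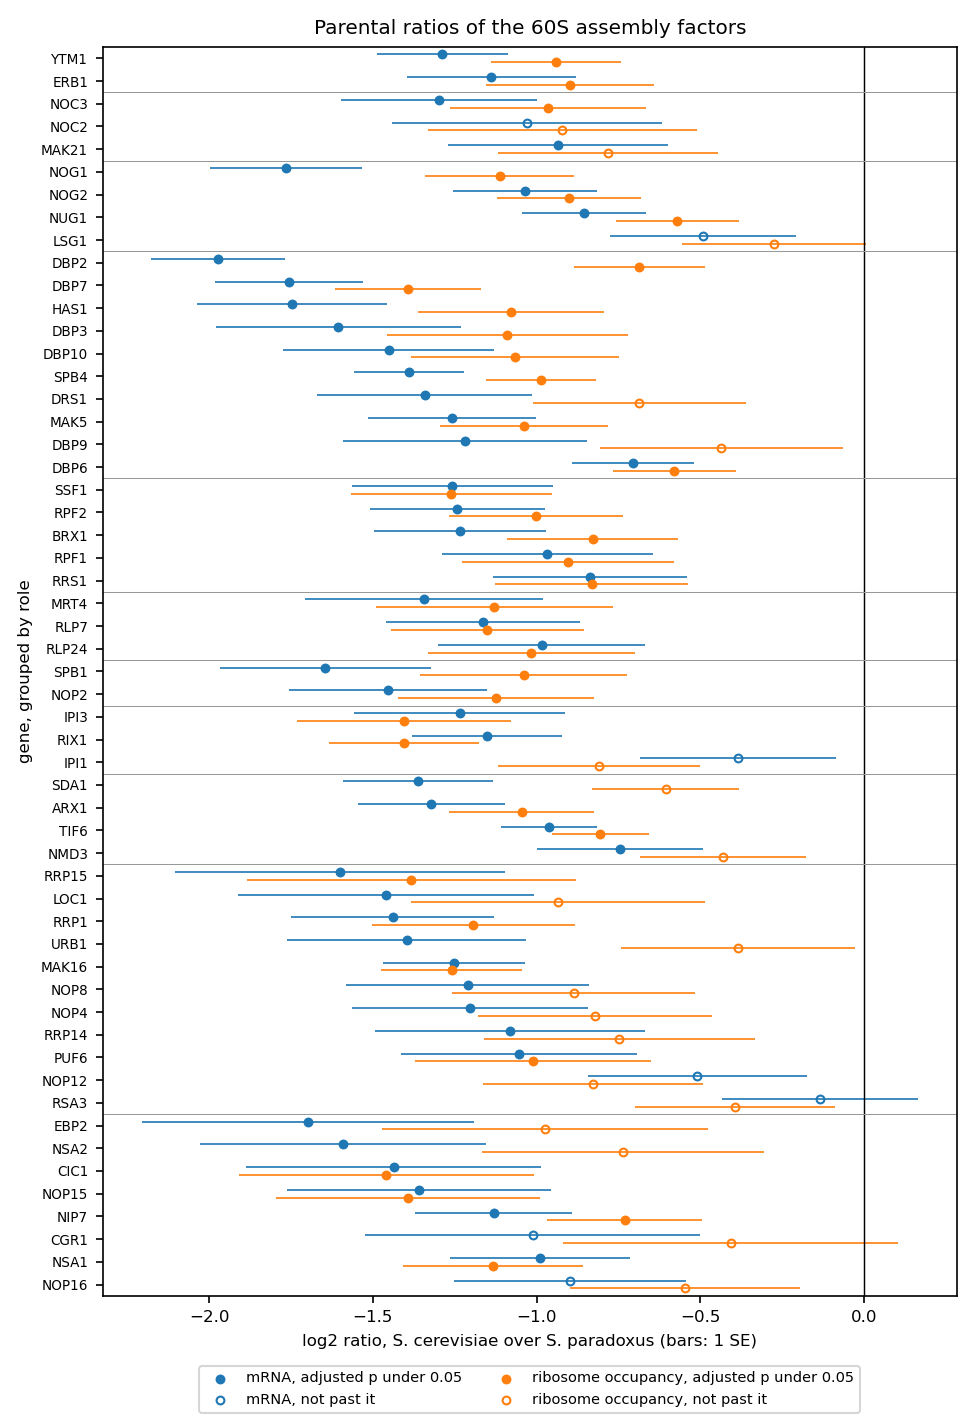
Log2 ratio of S. cerevisiae over S. paradoxus for each member, by role group, for mRNA (blue) and ribosome occupancy (orange). Bars are 1 SE of the edgeR fit, and filled points have an adjusted p under 0.05. All points lie left of 0, with DBP2 mRNA lowest at -1.97, and most occupancy points lie to the right of the mRNA point of the same gene.

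Ribosome occupancy of the same genes was also lower in S. cerevisiae for most members, with a smaller median. Of the 55 members, 36 were lower and 0 higher, where 15% of all genes were lower, 18% higher and 33% changed in either direction. The median log2 ratio was -0.94 (0.02 over all genes), and 54 members had both S. cerevisiae libraries below both S. paradoxus libraries, against 36.9% of all genes, with URB1 as the exception. None had the reverse order (38.7% of all genes). All 36 were among the 48 called lower for mRNA, that is 36 of 36 from one list and 36 of 48 from the other. With 48 of 55 members called for mRNA a large overlap was bound to follow, and that over all genes is not given. Across the 55 members the occupancy and mRNA ratios correlated by 0.486 (Pearson; 0.732 over all genes), a description of genes that share libraries and depth. The count moved in both directions as single libraries were left out. It was smaller without any parental Ribo-seq library and larger without at least 1 other library. The members' median stayed between -1.09 and -0.82 over all single omissions.

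CIC1 had the lowest occupancy ratio, with 199 and 154 CPM in S. cerevisiae, against 485 and 487 CPM in S. paradoxus (log2 -1.46, SE 0.45, edgeR adjusted p = 0.0245). The Rix1 complex followed. IPI3 had 117 and 85.1 CPM in S. cerevisiae, against 289 and 247 CPM in S. paradoxus (log2 -1.41, SE 0.33, edgeR adjusted p = 0.00523). RIX1 had 132 and 104 CPM in S. cerevisiae, against 327 and 299 CPM in S. paradoxus (log2 -1.41, SE 0.23, edgeR adjusted p = 0.000517). These 3 genes did not overlap between the species, and their occupancy estimates lay below their mRNA estimates (-1.44, -1.24 and -1.15). IPI1 had 52.7 and 44.9 CPM in S. cerevisiae, against 82.2 and 89.2 CPM in S. paradoxus (log2 -0.81, edgeR adjusted p = 0.0588), which did not pass the test. By role, all measured PeBoW, Brix and 5S, ribosomal protein-like and methyltransferase members were lower, as were 8 of 10 helicases, 4 of 8 mid nucleolar factors, 3 of 4 GTPases, 2 of 4 export and cytoplasmic factors, 4 of 11 early nucleolar factors and 1 of 3 NOC proteins.

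For the helicases, DBP7 had 69.2 and 60.97 CPM in S. cerevisiae, against 198 and 144 CPM in S. paradoxus (log2 -1.39, SE 0.22, edgeR adjusted p = 0.000447). HAS1 had 295 and 236 CPM in S. cerevisiae, against 608 and 512 CPM in S. paradoxus (log2 -1.08, SE 0.28). SPB4 had 77.2 and 72.7 CPM in S. cerevisiae, against 158 and 139.6 CPM in S. paradoxus (log2 -0.99, SE 0.17). All 3 were lower past the test, and none overlapped between the species. DBP2 had 487 and 421 CPM in S. cerevisiae, against 837 and 624 CPM in S. paradoxus (log2 -0.69, SE 0.20, edgeR adjusted p = 0.0179), also without overlap, a difference far smaller than that of its mRNA. Beyond the helicases, the PeBoW complex and the 5S partners RPF2 and RRS1 were lower too. ERB1 had 269 and 230.3 CPM in S. cerevisiae, against 526 and 403 CPM in S. paradoxus (log2 -0.90, SE 0.26). YTM1 had 216 and 171 CPM in S. cerevisiae, against 388 and 356 CPM in S. paradoxus (log2 -0.94, SE 0.20). RPF2 had 166 and 156 CPM in S. cerevisiae, against 368 and 276 CPM in S. paradoxus (log2 -1.002, SE 0.27). These 3 were lower past the test and did not overlap between the species. RRS1 had 133 and 129.8 CPM in S. cerevisiae, against 243 and 225 CPM in S. paradoxus (log2 -0.83, SE 0.29). NOG1 had 438 and 371 CPM in S. cerevisiae, against 960.5 and 791 CPM in S. paradoxus (log2 -1.11, SE 0.23). TIF6 had 328 and 375 CPM in S. cerevisiae, against 623 and 605 CPM in S. paradoxus (log2 -0.81, SE 0.15). These 3 were lower as well, again without overlap. NMD3 had 259.5 and 239.5 CPM in S. cerevisiae, against 359 and 314 CPM in S. paradoxus. LSG1 had 217 and 206 CPM in S. cerevisiae, against 281 and 230.5 CPM in S. paradoxus. RSA3 had 66.4 and 58.9 CPM in S. cerevisiae, against 86.98 and 77.7 CPM in S. paradoxus. NMD3, LSG1 and RSA3 were separated by library but did not pass the test, with 95% intervals of -0.97 to 0.11, -0.88 to 0.33 and -1.05 to 0.26.

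Translation efficiency, the occupancy ratio minus the mRNA ratio, differed between the parents past the test for DBP2 alone. Its value was 1.29 (SE 0.28, edgeR adjusted p = 0.0272), higher in S. cerevisiae, where 2.02% of all genes were higher, 1.45% lower and 3.47% changed in either direction. This call was lost without either S. cerevisiae RNA-seq or Ribo-seq library, without S. paradoxus RNA-seq replicate 1 or Ribo-seq replicate 2, and without either hybrid Ribo-seq library (0 called each), while 3 members were called without either hybrid RNA-seq library. For 44 of 55 members the estimate was above 0, as for 2782 of all 5158 genes, and the median was 0.28 against 0.04. With scaling to total counts the medians were 0.05 and -0.19, which leaves the members 0.24 above all genes, as against 0.23 with the scaling used throughout. The next largest estimates were URB1 (1.01) and NSA2 (0.85), and the 3 Rix1 complex members were all below 0 (-0.42 to -0.17), none of them past the test.

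Within each strain most assembly factors had more ribosome footprints relative to their mRNA reads than the typical gene, which is given as a description with no test. As log2 Ribo-seq CPM minus log2 RNA-seq CPM, the members' median was 0.58 in S. cerevisiae and 0.21 in S. paradoxus, against -0.04 over all genes in both. In S. cerevisiae 50 of 55 members lay above the median of all genes, and in S. paradoxus 45 did. Related genes were similar: in the same order of species, the 42 small subunit assembly factors had medians of 0.417 and 0.175. The 69 large subunit ribosomal protein genes had medians of 0.586 and 0.433. For the hybrid the members' medians were 0.80 for the S. cerevisiae allele and 0.72 for the S. paradoxus allele. They depended on the RNA-seq library used, at 0.28 and 0.26 with the first alone and 1.27 and 1.21 with the second alone. NOG2 had the lowest value in S. paradoxus (-0.59) and for both alleles (-0.98 and -0.56), and IPI1 in S. cerevisiae (-0.70). URB1 was highest in S. cerevisiae (1.79), RRS1 in S. paradoxus (1.01) and SPB1 for both alleles (1.66 and 1.90).

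**Figure D3:**
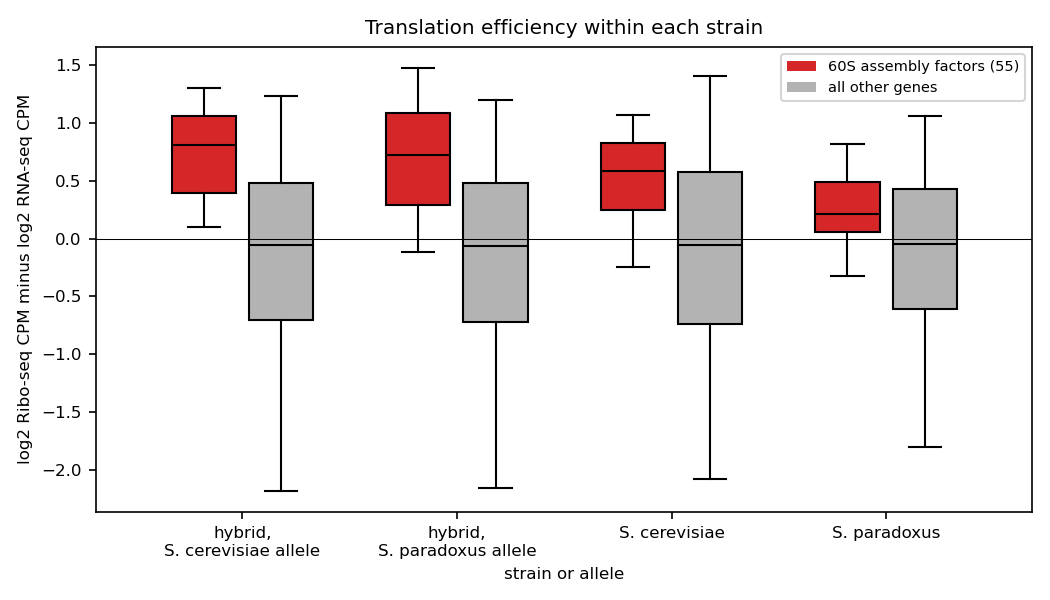
Translation efficiency level (log2 Ribo-seq CPM minus log2 RNA-seq CPM, mean of 2 libraries) of the 55 members (red) and of all other genes (grey) for each hybrid allele and each parent. Boxes span the interquartile range with the median as a line, and whiskers run from the 5th to the 95th percentile. The red boxes lie above the grey medians in all 4, with S. paradoxus nearest to them.

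Per kilobase of coding sequence, TIF6 had the highest level of all members in every group. In RNA-seq it had 318 CPM per kb in S. cerevisiae and 618 CPM per kb in S. paradoxus, and in Ribo-seq 476 and 832 CPM per kb in the same order of species. MRT4 was next in 7 of the 8 groups, and DBP2 in the RNA-seq of the S. cerevisiae allele. In S. paradoxus RNA-seq TIF6 and MRT4 (609 CPM per kb) lay close together. URB1 was the lowest in all 4 RNA-seq groups (15.5 CPM per kb in S. cerevisiae and 40.7 in S. paradoxus), followed by DBP7 in 3 of them. The members thus spanned 20.5-fold in S. cerevisiae mRNA and 15.2-fold in S. paradoxus mRNA. Their median of 83.6 CPM per kb in S. cerevisiae lay above that of all genes (54.8), as did their median of 186 in S. paradoxus (51.1).

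In the hybrid both alleles share 1 nucleus, and their ratio was close to even for most members. For mRNA 1 member was lower and 0 were higher from the S. cerevisiae allele, where 7.19% of all genes were lower, 5.76% higher and 13% changed in either direction. The median was -0.10 (-0.01 over all genes), and 51 of 55 members lay within 0.5 of an even ratio, against 72.2% of all genes. SPB4 had 83.9 and 71.7 CPM from the S. cerevisiae allele, against 137 and 114 CPM from the S. paradoxus allele. The alleles did not overlap, and the S. cerevisiae allele was 1.61-fold lower (log2 -0.69, SE 0.17, edgeR adjusted p = 0.0152). The 95% interval of the allelic ratio lay within a 2-fold difference for 38 of 55 members, with half-widths of 0.31 to 1.13 (log2), so allelic differences above 2-fold were within the error for the rest. The S. cerevisiae allele was the lower one in both libraries for 27 members (38.9% of all genes) and the higher one in both for 12 (37.8%).

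Because both alleles come from the same library, the allelic ratio was also fitted on the hybrid columns alone with the library as a block. That pairing gave 15 calls for mRNA, where 41.4% of all genes were called (19.1% lower and 22.3% higher). SPB4, SSF1, RRP15, DBP3, HAS1, YTM1, NOG1, NSA2, NOC3 and MRT4 were lower from the S. cerevisiae allele, and NIP7, SDA1, NOP4, LSG1 and MAK21 were higher. The sizes stayed small, from -0.66 (SE 0.11) for SPB4 to 0.56 (SE 0.10) for MAK21. The fit has only 2 residual degrees of freedom. HAS1 had 227 and 156 CPM from the S. cerevisiae allele, against 366 and 185 CPM from the S. paradoxus allele. YTM1 had 216 and 146 CPM from the S. cerevisiae allele, against 266 and 224 CPM from the S. paradoxus allele. NOG1 had 409 and 599.8 CPM from the S. cerevisiae allele, against 576 and 731 CPM from the S. paradoxus allele. For these 3 genes the S. cerevisiae allele was the lower one within each library, while the alleles overlapped across libraries for HAS1 and NOG1. LSG1 had 188 and 93.3 CPM from the S. cerevisiae allele, against 129 and 78.5 CPM from the S. paradoxus allele, with the S. cerevisiae allele higher within each library. With each single library left out of the fit of all columns the count stayed at 1, with medians of -0.14 to -0.05.

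DBP2 had 559.6 and 536 CPM from the S. cerevisiae allele, against 545 and 609 CPM from the S. paradoxus allele. TIF6 had 434 and 386 CPM from the S. cerevisiae allele, against 428 and 396 CPM from the S. paradoxus allele. ERB1 had 227 and 141 CPM from the S. cerevisiae allele, against 196 and 151 CPM from the S. paradoxus allele. These 3 genes had alleles at much the same level, with 95% intervals of -0.50 to 0.35, -0.32 to 0.31 and -0.46 to 0.64 for the log2 ratio. DBP7 had 73.2 and 57.1 CPM from the S. cerevisiae allele, against 80.2 and 62.3 CPM from the S. paradoxus allele. RPF2 had 130 and 83.1 CPM from the S. cerevisiae allele, against 122 and 76.9 CPM from the S. paradoxus allele. RRS1 had 105 and 61.4 CPM from the S. cerevisiae allele, against 97.95 and 54.5 CPM from the S. paradoxus allele. Either allele of these genes differed more between the 2 libraries than the alleles differed within a library. NMD3 had 271 and 155 CPM from the S. cerevisiae allele, against 226 and 152 CPM from the S. paradoxus allele. IPI1 had 97.1 and 51.5 CPM from the S. cerevisiae allele, against 84.8 and 47.3 CPM from the S. paradoxus allele. RSA3 had 88.2 and 40.4 CPM from the S. cerevisiae allele, against 73.9 and 50.3 CPM from the S. paradoxus allele. The same held for these 3, and none of the 6 was called in either fit.

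Ribosome occupancy of the alleles was also near even. No member was called (0 of 55) in edgeR's quasi-likelihood test, where 8.74% of all genes were (4.65% lower and 4.09% higher). In the same test 1 had an unadjusted p under 0.05, DESeq2 called 1, and 1 was called without either hybrid RNA-seq library. All 55 members lay within 0.5 of an even ratio (75.7% of all genes), with a median of -0.07, and the 95% interval lay within a 2-fold difference for 45. The S. cerevisiae allele was lower in both libraries for 32 members (38.8% of all genes) and higher in both for 15 (42.5%). With the library as a block 10 were called (28.5% of all genes, with 14.3% in each direction). RRP15, SPB4, SSF1, RPF1, RIX1, MAK16 and DBP3 were lower from the S. cerevisiae allele, and NMD3, DBP2 and DBP9 higher, all between -0.51 and 0.41. SPB4 had 83.6 and 87.5 CPM from the S. cerevisiae allele, against 130 and 112 CPM from the S. paradoxus allele, the S. cerevisiae allele again lower without overlap. DBP2 had 854 and 692 CPM from the S. cerevisiae allele, against 675 and 577 CPM from the S. paradoxus allele, the S. cerevisiae allele higher without overlap. RIX1 had 197 and 148 CPM from the S. cerevisiae allele, against 238 and 208 CPM from the S. paradoxus allele. NMD3 had 330.3 and 271 CPM from the S. cerevisiae allele, against 280.4 and 216 CPM from the S. paradoxus allele. The S. cerevisiae allele was lower within each library for RIX1 and higher for NMD3. NOG1 had 609 and 485 CPM from the S. cerevisiae allele, against 663 and 540.5 CPM from the S. paradoxus allele. HAS1 had 403 and 354 CPM from the S. cerevisiae allele, against 459 and 417 CPM from the S. paradoxus allele. YTM1 had 239.6 and 211 CPM from the S. cerevisiae allele, against 262 and 229.8 CPM from the S. paradoxus allele. For these 3 genes the S. cerevisiae allele was slightly lower within each library, and none passed either test. TIF6 had 457 and 418 CPM from the S. cerevisiae allele, against 512 and 479.6 CPM from the S. paradoxus allele, with the same direction and again no call.

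ERB1 had 432 and 318 CPM from the S. cerevisiae allele, against 407 and 332 CPM from the S. paradoxus allele. RPF2 had 283 and 218 CPM from the S. cerevisiae allele, against 282 and 217 CPM from the S. paradoxus allele. RRS1 had 229 and 172 CPM from the S. cerevisiae allele, against 218 and 159.9 CPM from the S. paradoxus allele. The alleles of these 3 genes overlapped. DBP7 had 121 and 88.98 CPM from the S. cerevisiae allele, against 138 and 104 CPM from the S. paradoxus allele. LSG1 had 264 and 226 CPM from the S. cerevisiae allele, against 228 and 199.6 CPM from the S. paradoxus allele. IPI1 had 66.6 and 47.7 CPM from the S. cerevisiae allele, against 65.3 and 50.5 CPM from the S. paradoxus allele. These 3 overlapped as well. RSA3 had 96.2 and 71.5 CPM from the S. cerevisiae allele, against 85.2 and 84.9 CPM from the S. paradoxus allele, and none of these 7 genes was called between the alleles in either fit.

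Translation efficiency between the alleles gave 0 calls in edgeR's quasi-likelihood test, where 1.38% of all genes were called (0.717% lower and 0.659% higher). No member had an unadjusted p under 0.05, DESeq2 called 0, and the median was -0.02. With the library as a block 2 members were called (8.31% of all genes, 4.45% lower and 3.86% higher): MAK21 was lower from the S. cerevisiae allele (-0.64, SE 0.13) and DBP9 higher (0.68, SE 0.17).

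The parental difference was set against the allelic one by testing the parental ratio minus the allelic ratio. For mRNA this was below 0 in all 55 members, as in 2460 of all 5158 genes, with a median of -1.08 (0.03 over all genes). The test was passed by 16 members, all lower, where 5.51% of all genes were lower, 6.9% higher and 12.4% changed in either direction. The 16 were DBP2, SPB1, DBP7, DBP10, SDA1, DRS1, ARX1, NOG1, NIP7, RPF2, NOG2, ERB1, MAK16, RIX1, TIF6 and NUG1. DBP2 differed most, with a parental ratio of -1.97 and an allelic ratio of -0.07 (difference -1.90, SE 0.28, edgeR adjusted p = 0.00134). SPB1 followed (-1.65 between the parents, 0.09 between the alleles, difference -1.74, SE 0.45). Its mRNA had 72.6 and 57.4 CPM in S. cerevisiae, against 248 and 159 CPM in S. paradoxus. In the hybrid it had 102 and 65.1 CPM from the S. cerevisiae allele, against 102 and 54.4 CPM from the S. paradoxus allele, with overlap between the alleles only. DBP7 was next (-1.76 and -0.13, difference -1.63, SE 0.31). SPB4, the member called between the alleles, had a difference of -0.70 (95% interval -1.20 to -0.20) that did not pass (edgeR adjusted p = 0.0653).

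The fit treats the alleles of a library as separate columns, although they are paired, with correlated deviations from the group means (0.801 for RNA-seq and 0.346 for Ribo-seq). With the library as a random effect in limma voom 42 members passed (1483 of all genes), and with the replicate number as a block in edgeR 44 did (1246 of all genes). The number of members that passed moved with nearly every library left out. It was 38 and 43 without hybrid RNA-seq replicate 1 and 2, 7 and 4 when S. cerevisiae RNA-seq replicate 1 or 2 was dropped, and 7 and 9 when S. paradoxus RNA-seq replicate 1 or 2 was. It was 10 without either S. cerevisiae Ribo-seq library, and 10 and 9 without hybrid Ribo-seq replicate 1 and 2. The median stayed between -1.23 and -0.96 over these omissions. Scaling to total counts gave 8, with a median of -0.78 for the members and 0.34 for all genes. For occupancy the difference was also below 0 in all 55 members (2478 of all 5158 genes), with a median of -0.86 (0.03 over all genes). The test was passed by 2 of 55 members, a share near that of all genes (2.38% lower, 4.59% higher and 6.98% changed in either direction). These were DBP7 (-1.39 between the parents and -0.20 between the alleles, difference -1.19, SE 0.31, edgeR adjusted p = 0.0369) and ARX1. ARX1, with no overlap between the parents and overlapping alleles, had 289 and 255 CPM in S. cerevisiae, against 605 and 519 CPM in S. paradoxus. In the hybrid it had 454 and 365 CPM from the S. cerevisiae allele, against 434 and 349.7 CPM from the S. paradoxus allele (difference -1.11, SE 0.31, edgeR adjusted p = 0.0491). The count was 40 and 36 without hybrid RNA-seq replicate 1 and 2, 39 without both, and 2 without S. paradoxus Ribo-seq replicate 2. It was 0 without any other single library, with medians of -1.03 to -0.75. With a library effect in limma voom it was 26 (800 of all genes), and with the replicate number as a block 28 (780 of all genes).

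**Figure D4:**
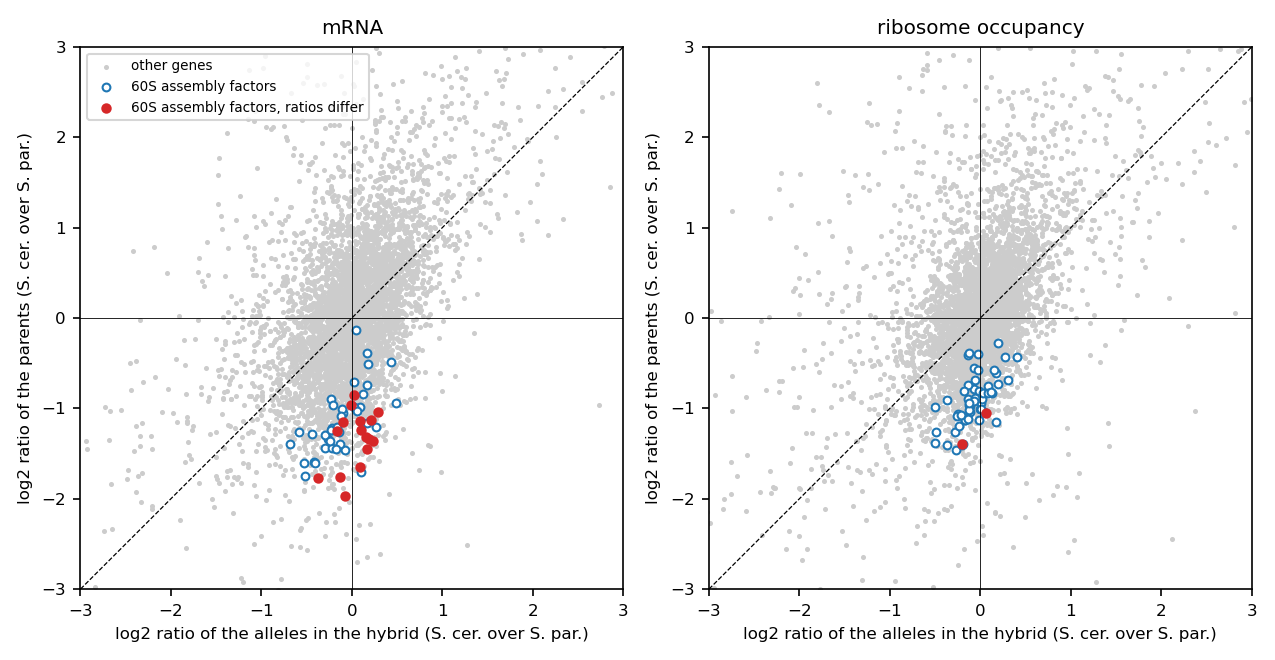
Parental log2 ratio (vertical) against allelic log2 ratio (horizontal), both S. cerevisiae over S. paradoxus, for mRNA (left) and occupancy (right). Circles are the 55 members, filled red where the ratios differ past the test (16 for mRNA, 2 for occupancy), grey dots are other genes, and the dashed line marks equal ratios. Genes beyond 3 on an axis lie outside the frame. All members lie below the dashed line, spread along the vertical axis and close to 0 on the horizontal one.

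With its alleles summed, the hybrid lay between its parents for most members. By mean mRNA level 47 of 55 members lay between the parental means (50.6% of all genes) and 8 below both (25.1%): IPI1, NOP12, LSG1, RRP14, DBP6, RLP24, PUF6 and RSA3. The libraries disagreed. In hybrid RNA-seq replicate 1 all 55 members lay between the parents (61% of all genes), while in replicate 2 16 did (34.9%) and 39 lay below both (34%). For occupancy 54 of 55 lay between the parents (63.5% of all genes) and RSA3 above both (16.7%), with 52 and 50 between in the single libraries. The comparisons of the hybrid with each parent use the same hybrid libraries, so they are not independent.

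Against S. cerevisiae, 6 of 55 members had higher mRNA in the hybrid and 0 lower, no larger a share than over all genes (14.2% higher, 11.2% lower and 25.4% changed in either direction). The median was 0.31 (-0.01 over all genes). DBP2 had 553 and 569 CPM in the hybrid, against 254 and 204 CPM in S. cerevisiae and 1013 and 788 CPM in S. paradoxus (2.45-fold above S. cerevisiae, log2 1.29, SE 0.20, edgeR adjusted p = 0.00133). NOG1 had 494 and 662 CPM in the hybrid, against 250 and 224 CPM in S. cerevisiae and 696 and 916 CPM in S. paradoxus (2.44-fold above S. cerevisiae, log2 1.29, SE 0.21, edgeR adjusted p = 0.00155). TIF6 had 432 and 388 CPM in the hybrid, against 229.5 and 247 CPM in S. cerevisiae and 491 and 437 CPM in S. paradoxus (1.72-fold above S. cerevisiae, log2 0.78, SE 0.15, edgeR adjusted p = 0.00432). In these 3 genes both hybrid libraries lay above both S. cerevisiae libraries. NOG2, DBP7 and YTM1 were the other 3 called (0.77, 0.70 and 0.58). The count turned on the hybrid libraries: without replicate 2 of hybrid RNA-seq 32 members were higher, while without replicate 1 there were 4 higher and 11 lower and the median was -0.26. It was 2 or 3 when S. cerevisiae RNA-seq replicate 1 or 2 was dropped. With scaling to total counts it was 3, the members' median was 0.02, and the median of all genes -0.30.

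Against S. paradoxus, 41 members had lower mRNA in the hybrid and 0 higher, where 10.9% of all genes were lower, 14.8% higher and 25.7% changed in either direction, with a median of -0.93 (0.00 over all genes). SPB1 had 102 and 59.2 CPM in the hybrid, against 73.8 and 58.3 CPM in S. cerevisiae and 252 and 162 CPM in S. paradoxus (log2 -1.36, SE 0.29, edgeR adjusted p = 0.00754 against S. paradoxus). EBP2 had 250.1 and 84.5 CPM in the hybrid, against 149 and 108 CPM in S. cerevisiae and 536 and 299 CPM in S. paradoxus (log2 -1.32, SE 0.41, edgeR adjusted p = 0.0347). NSA2 had 176 and 63.9 CPM in the hybrid, against 113 and 80.6 CPM in S. cerevisiae and 309 and 275 CPM in S. paradoxus (log2 -1.29, SE 0.35, edgeR adjusted p = 0.0207). The hybrid did not overlap S. paradoxus in these 3 genes. All 10 helicases were lower, against 0 of 4 GTPases. The count was 12 or 19 when S. paradoxus RNA-seq replicate 1 or 2 was dropped, 14 without hybrid RNA-seq replicate 2 and 52 without replicate 1.

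For occupancy the hybrid exceeded S. cerevisiae past the test in 3 of 55 members, about the share of all genes (5.74% higher, 6.98% lower and 12.7% changed in either direction). The members' median was 0.49 (-0.03 over all genes). DBP7 had 131 and 97.6 CPM in the hybrid, against 70.1 and 62.01 CPM in S. cerevisiae and 202 and 147 CPM in S. paradoxus (log2 0.79, SE 0.20, edgeR adjusted p = 0.0253). RIX1 had 221 and 180.1 CPM in the hybrid, against 134 and 106 CPM in S. cerevisiae and 333 and 306 CPM in S. paradoxus (log2 0.74, SE 0.21, edgeR adjusted p = 0.0346). MAK16 had 228 and 169 CPM in the hybrid, against 129 and 117 CPM in S. cerevisiae and 311 and 280.1 CPM in S. paradoxus (log2 0.69, SE 0.19, edgeR adjusted p = 0.0357). In all 3 genes the hybrid libraries lay above both S. cerevisiae libraries and below both S. paradoxus libraries. The count was 24 and 23 without hybrid RNA-seq replicate 1 and 2, 27 without both, 1 without either S. paradoxus Ribo-seq or either S. cerevisiae RNA-seq library, and 0 without either S. cerevisiae Ribo-seq library or hybrid Ribo-seq replicate 1. Against S. paradoxus, 1 of 55 members was lower, no larger a share than over all genes (2.89% lower, 4.73% higher and 7.62% in either direction), with a median of -0.50 (0.00 over all genes). This was YTM1, with 254 and 223 CPM in the hybrid, against 219 and 174 CPM in S. cerevisiae and 395 and 363 CPM in S. paradoxus (log2 -0.67, SE 0.18, edgeR adjusted p = 0.041). The count was 24 and 28 without hybrid RNA-seq replicate 1 and 2, 24 without both, 1 without either S. paradoxus RNA-seq library, and 0 without any other single library.

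**Figure D5:**
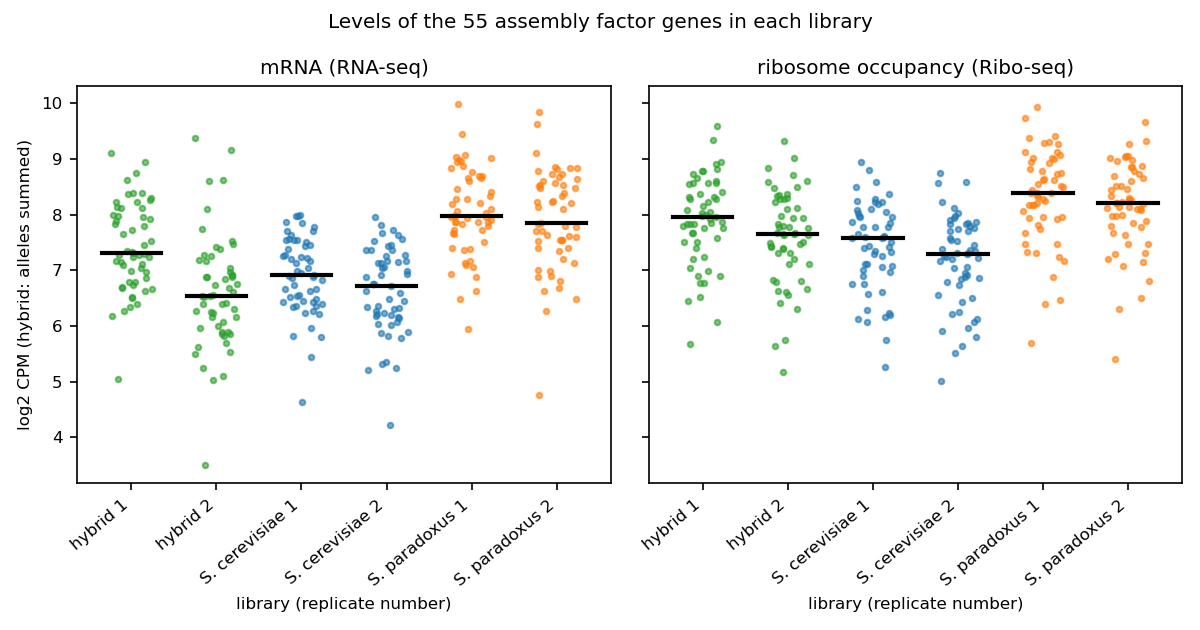
Level of each of the 55 members (points, log2 CPM with the hybrid alleles summed) in every library, with the median as a bar, for mRNA (left) and occupancy (right). The S. paradoxus libraries are highest in both panels. Hybrid RNA-seq library 1 has a median between those of the parents and library 2 one below both, while the Ribo-seq libraries of the hybrid lie between the parents.

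Other genes of ribosome production were lower in S. cerevisiae as well. Of 24 further 60S assembly factors, 18 had lower mRNA (median -1.06), with ALB1, a partner of ARX1, lowest (-1.72). Of 42 assembly factors of the small subunit, 37 were lower (median -1.20), with the nucleolar protein NSR1 lowest (-2.26). All 7 measured subunits of RNA polymerase I, which transcribes ribosomal RNA, were lower (median -1.08, RPA12 lowest at -2.01). Of 69 genes for ribosomal proteins of the large subunit, 35 were lower (median -0.59), with RPL15B lowest (-2.55). Many of these have near-identical copies, RPL15B among them, so their counts are uncertain. Of all genes 21.6% were lower. For occupancy 15 of 24, 27 of 42, 5 of 7 and 19 of 69 were lower, in the same order of lists (medians -0.78, -0.87, -0.82 and -0.36), against 15% of all genes. The mRNA ratio between the parents also lay below that between the alleles past the test for 10 of 24, 16 of 42, 5 of 7 and 3 of 69. The medians of that difference were -1.01, -1.11, -1.18 and -0.62, against -1.08 for the 55 members. The differences between the lists were not tested.

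The known regulators of these genes did not share a direction. DOT6 and TOD6 are related repressors that bind the PAC motif of ribosome biogenesis promoters. DOT6 mRNA had 261 and 274 CPM in S. cerevisiae, against 56.0 and 69.3 CPM in S. paradoxus (log2 2.10, SE 0.35, edgeR adjusted p = 0.000451), without overlap. TOD6 mRNA had 88.3 and 71.2 CPM in S. cerevisiae, against 207 and 302 CPM in S. paradoxus (log2 -1.67, SE 0.35, edgeR adjusted p = 0.00204), again without overlap and in the opposite direction. STB3, a repressor that binds the RRPE motif, was higher in S. cerevisiae (0.83, SE 0.21), and SCH9, a kinase downstream of TOR, was lower (-1.23, SE 0.17). The activator SFP1 stood at -0.19 (SE 0.21) and did not pass the test. For occupancy DOT6 was higher (1.82), TOD6 (-1.73), SFP1 (-0.85) and SCH9 (-0.49) were lower, and STB3 (0.42, SE 0.21) did not pass. None of the 5 passed between the alleles in edgeR's quasi-likelihood test or for translation efficiency.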

How the data were processed

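RNA-seq and Ribo-seq counts were analysed for 12 libraries. The submitters' processing notes name the build sacCer3 and the tools Bowtie 0.12.8, cutadapt 1.2.1, CASAVA 1.8 and bedtools 2.17.0. The deposited counts are reads per gene for 5226 genes in 16 columns, per the file headers, and the parental columns are headed "Mix". What that means, how reads were assigned to genes and whether strand was used are not stated. All columns were mapped to samples by name. Positions are R64 (sacCer3) coordinates from the authors' deposited table and RefSeq.

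Counts were scaled by TMM and fitted with edgeR 4.0.16 (R 4.3.3), after filterByExpr (minimum count 10), which left 5158 genes in 16 columns and 5159 in 12 libraries with the alleles summed, and 8 residual degrees of freedom in the fit of 16 columns. Translation efficiency and parental against allelic ratios were contrasts of the same fit. CPM use the TMM-scaled library size, and levels between genes are divided by coding length. limma 3.58.1 (voom with a random library effect) and DESeq2 1.42.0 were alternatives. The scripts were tested on simulated counts drawn independently for every column. The pairing of the alleles and the gap between the hybrid RNA-seq libraries were not simulated. Values in every library are given for the 3 lowest and 3 highest members by parental mRNA ratio, 9 fixed members spread over the roles, and the members with the largest called ratios in each comparison (every called member where at most 5 were called). The members and lists were chosen with earlier results of these data known. The alleles counted in one hybrid library are a natural pair, and their deviations from the group means had correlations of 0.801 (RNA-seq) and 0.346 (Ribo-seq).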

Additional observations from a re-analysis of the deposited data

Results flagged for a closer look

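For 16 of 55 members the mRNA ratio between the parents differed from that between the alleles of the hybrid by the interaction test (edgeR's quasi-likelihood test, Benjamini-Hochberg adjusted p under 0.05), where 5.51% of all genes were lower and 12.4% changed in either direction. The differences, parental minus allelic log2 ratio, were -1.9 for DBP2, -1.74 for SPB1, -1.63 for DBP7, -1.62 for DBP10, -1.6 for SDA1, -1.54 for DRS1, -1.48 for ARX1 and -1.39 for NOG1. They were -1.35 for NIP7, -1.34 for RPF2, -1.32 for NOG2, -1.22 for ERB1, -1.08 for MAK16, -1.05 for RIX1, -0.95 for TIF6 and -0.88 for NUG1. In ribosome occupancy the difference passed for 2 of 55 members, DBP7 (-1.19) and ARX1 (-1.11). This share was near that of all genes, of which 2.38% were lower and 6.98% changed in either direction. The edgeR adjusted p was lowest for DBP2 mRNA (0.00134) and nearest the threshold for ARX1 occupancy (0.0491). All 18 were negative. The mRNA difference was not particular to the members. It also passed, always lower, for 10 of 24 further 60S assembly factors, 16 of 42 small subunit assembly factors and 5 of 7 RNA polymerase I subunits. With single libraries left out, 4 to 43 members passed for mRNA and 0 to 40 for occupancy.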

How the results depend on the processing

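The cause of these movements was not tested. Calls over all genes are not given for the omitted libraries, total-count scaling or DESeq2, so a changed count may not be particular to the members. By counts of members called, the range over the omission of each library was 24 to 53 for parental mRNA (48 with all libraries), 8 to 51 for parental occupancy (36), 0 to 3 for parental translation efficiency (1), 1 for allelic mRNA (1), 0 to 1 for allelic occupancy (0), 0 for allelic translation efficiency (0), 4 to 43 and 0 to 40 for parental minus allelic mRNA (16) and occupancy (2), 2 to 32 for hybrid against S. cerevisiae mRNA (6), 12 to 52 against S. paradoxus mRNA (41), 0 to 24 against S. cerevisiae occupancy (3) and 0 to 28 against S. paradoxus occupancy (1). Without hybrid RNA-seq replicate 1 the first of these hybrid results reversed (15 called, mostly lower), its median ranging over -0.26 to 0.63.

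Scaling to total counts gave 8 and 1 for parental minus allelic mRNA and occupancy, 3 and 1 for the hybrid against S. cerevisiae in mRNA and occupancy, and a parental mRNA median of -0.965. DESeq2 gave 29 and 10 for parental minus allelic, 1 for allelic occupancy, 11 and 6 for the hybrid against S. cerevisiae in mRNA and occupancy, and 6 against S. paradoxus in occupancy. Voom with a library effect gave 9, 6 and 1 for allelic mRNA, occupancy and translation efficiency, and 42 and 26 for parental minus allelic.

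The replicate number, which the labels do not tie to a shared batch, gave as a replicate block 2 and 1 for allelic mRNA and occupancy, 44 and 28 for parental minus allelic, 11 and 11 for the hybrid against S. cerevisiae in mRNA and occupancy, and 15 against S. paradoxus in occupancy; it moved no other count by over 1.5 times. The deviations of same-numbered RNA-seq columns had correlations of 0.209 between the parents and 0.22 to 0.289 between a parent and a hybrid allele. For Ribo-seq they were 0.095 and 0.057 to 0.117, and over all pairs of columns from different libraries -0.06 to 0.311. Whether the numbers pair the libraries cannot be settled from 2 numbers. With hybrid columns only and a library block, the allelic counts were 15, 10 and 2 for mRNA, occupancy and translation efficiency. The same columns without a block, added after the data were seen, gave 0 for allelic mRNA. Parental columns alone gave 2 for translation efficiency. Leaving out both hybrid RNA-seq libraries, also added later, gave 3 for parental translation efficiency, 1 for allelic occupancy, 39 for parental minus allelic occupancy, and 27 and 24 for hybrid occupancy against S. cerevisiae and S. paradoxus. Of 5375 single-gene values under all alternatives, 4674 kept their direction and side of the threshold, 470 lost the call, 176 gained one and 55 changed sign without being called.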

Other observations

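Other genes of ribosome production were also lower in the second hybrid RNA-seq library than in the first. Replicate 2 minus replicate 1 (median log2) was -0.76 and -0.72 for the 42 small subunit assembly factors, for the alleles of S. cerevisiae and of S. paradoxus, -0.40 and -0.44 for the 69 large subunit ribosomal protein genes, and -0.17 and -0.29 for the 7 RNA polymerase I subunits. In S. paradoxus RNA-seq the same difference was 0.05 for the small subunit assembly factors, -0.47 for the ribosomal protein genes, with 67 of 69 below 0, and -0.21 for RNA polymerase I. The 24 further 60S assembly factors had medians of -0.50 and -0.51 in hybrid RNA-seq, for the alleles of S. cerevisiae and of S. paradoxus. In the same order of alleles, 29.2% and 8.33% of them lay below -1, and 26.2% and 21.4% of the small subunit assembly factors. Of the ribosomal protein genes 4.35% and 5.8% did, against 3.61% and 3.47% of all genes. Differences between the lists and between the groups were not tested. For the 5 regulators the median difference was 0.37 and 0.46, for the alleles of S. cerevisiae and of S. paradoxus, with 1 and 0 of them below 0. Among them the repressor DOT6 had 115 and 256 CPM from the S. cerevisiae allele and 78.4 and 153 CPM from the S. paradoxus allele in replicates 1 and 2. The activator SFP1 had 91.5 and 119 CPM from the S. cerevisiae allele and 73.2 and 101 CPM from the S. paradoxus allele. In hybrid Ribo-seq the large subunit ribosomal protein genes differed by -0.01 and 0.00 between replicates, while the assembly factors differed by -0.30 for either allele.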
